A study of Homo sapiens with 24 samples.

Results

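TNRC6C was silenced with a pool of duplex RNAs in HCT116 cells that carry knockout mutations in both TNRC6A and TNRC6B, so that the only TNRC6 paralog without a knockout mutation was reduced as well. The comparison holds 6 of the 24 RNA-seq libraries of the series: 3 labelled TNRC6A-/-, TNRC6B-/-, siTNRC6C (TNRC6AB-/- siTNRC6C) and 3 labelled with the same genotype and siGL2 (TNRC6AB-/- siGL2). A library belongs to the comparison by its label, not by any measured value. siGL2 is a duplex with no intended target in human cells, and all 6 libraries share both knockout mutations, the cell line and a lipid transfection. Another 6 libraries, wild-type HCT116 cells given siTNRC6C (3) or siGL2 (3), entered the same fit and show the silencing with TNRC6A and TNRC6B intact. HCT116 is a colorectal cancer cell line. The knockout cells were purchased, and per the study's own account TNRC6A carries a frameshift and TNRC6B a large deletion. TNRC6AB-/- cells were seeded more densely than wild-type cells. The labels number the libraries within a group but do not say whether they came from separate cultures, so p-values measure the spread between these libraries, which may be technical. The question was what the loss of TNRC6C changes when neither of the other paralogs is intact.

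TNRC6 proteins, also called GW182 proteins, are the scaffolds of microRNA silencing. They bind Argonaute (AGO) proteins loaded with a microRNA, and they recruit the deadenylase complexes CCR4-NOT and PAN2-PAN3, after which the target mRNA loses its poly(A) tail, is decapped and decays. A microRNA finds its targets mainly through its seed, the bases near its 5′ end, which pair with sites in the 3′ untranslated region (UTR). let-7 is an abundant microRNA family of differentiated cells whose well known targets include HMGA2, and the miR-200 family keeps epithelial cells epithelial by silencing ZEB1 and ZEB2.

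The strands of the duplexes are shown because they define the treatment, and let-7a and miR-200b because their seed matches lie in several of the genes described here. Capitals mark bases 2 to 8 of each sequence as listed, which is the seed in a microRNA, and each sequence is written 5′ to 3′. Antisense strands 2 and 3 are 27 bases long as listed. Whether they act in cells at that length, and so with these bases as their seed, was not tested. The duplex strands come from the study's supplementary list and the microRNAs from RefSeq.
siTNRC6C antisense 1: aAGUGGACguuugugguuc
siTNRC6C antisense 2: uACUGAUGucaaccuggaaguguagaa
siTNRC6C antisense 3: uGACAUUCauguuuggguucaguccag
siGL2 antisense: uCGAAGUAuuccgcguacg
let-7a-5p: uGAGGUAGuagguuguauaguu
miR-200b-3p: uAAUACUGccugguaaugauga

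Each siTNRC6C antisense strand matched the TNRC6C transcript without a mismatch. In the GRCh38 assembly and the GENCODE 29 annotation, read along TNRC6C-211, strand 1 pairs with chr17:78049543-78049561 in the coding part of exon 5, strand 3 with chr17:78091440-78091466 in the coding part of exon 16, and strand 2 with chr17:78105534-78105560 in the 3′ UTR, in exon 23. These sites are present in 5, 6 and 5 of the 11 annotated TNRC6C transcripts. Beyond TNRC6C, the closest match of any strand to a tested gene was the sense strand of duplex 1 to AHSA1, a co-chaperone of HSP90, with 2 mismatches over 19 bases. AHSA1 measured 91.4, 92.3 and 96.4 CPM (a gene's estimated reads relative to the library's total, scaled by TMM) in TNRC6AB-/- siTNRC6C libraries, against 137, 135 and 115 CPM in TNRC6AB-/- siGL2 libraries (log2 fold change -0.47, SE 0.073, adjusted p = 4.94e-05, edgeR). Of the other near matches followed here, all with 3 mismatches, AHNAK, which codes for a large scaffold protein, had a log2 fold change of 0.27 (adjusted p = 0.00556, edgeR), POLR1D, a subunit shared by RNA polymerases I and III, -0.24 (adjusted p = 0.00502), ACIN1 -0.07 (adjusted p = 0.292) and ZFHX4 -0.09 (adjusted p = 0.19). The near matches thus had no common direction.

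Depth ran between 34755065 and 41725731 estimated reads in TNRC6AB-/- siTNRC6C libraries and between 31183102 and 40713574 in TNRC6AB-/- siGL2 libraries. Replicate 3 of TNRC6AB-/- siGL2 stands apart from the other siGL2 libraries of its background: it is the shallowest, and 4.50% of its reads fell on transcripts annotated as retained introns, against 3.52% and 3.75% in replicates 1 and 2. The TNRC6AB-/- siTNRC6C libraries lay between 4.32% and 4.55%. Replicate 3 of wild type siGL2 stood apart in the same way (4.33%, against 3.28% and 3.33%). Replicates of each group differed by more than sampling noise, with a chi-square per degree of freedom of at least 2.73. It was highest for pairs with replicate 3 of siGL2, at 19.2 and 15.5 in wild-type cells and 8.23 and 5.98 in TNRC6AB-/- cells. Every other pair was at 4.08 or less. The epithelial identity of the line was present in both groups (KRT8, KRT18, KRT19 and EPCAM all above 100 CPM), while LGALS4, CDH17 and VIL1, markers of differentiated colon, were below the filter or under 1 CPM. Of 22 markers of blood, endothelial, fibroblast, liver and glial cells, 10 were below the filter, and their summed level was 24.5 to 24.9 CPM in TNRC6AB-/- siTNRC6C libraries and 17.7 to 18.6 CPM in TNRC6AB-/- siGL2 libraries; the part of this difference in other results was not tested.

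TNRC6C RNA was strongly reduced. TNRC6C (ENSG00000078687.17, chr17:77959240-78108835) measured 20.8, 19.9 and 18.9 CPM in TNRC6AB-/- siTNRC6C libraries, against 124, 118 and 113 CPM in TNRC6AB-/- siGL2 libraries. The log2 fold change was -2.57 (SE 0.057, adjusted p = 1.57e-17, edgeR), or 83.2% lower with a 95% interval of 81.9% to 84.5%. In wild-type cells TNRC6C averaged 20.04 ± 0.55 CPM with siTNRC6C and 50.5 ± 1.88 CPM with siGL2 (SD, n = 3 each). Counted as CPM, the level left after silencing was therefore close in both backgrounds, while the starting level was higher in TNRC6AB-/- cells. The fold change was larger in TNRC6AB-/- cells by 1.24 on the log2 scale (SE 0.079, adjusted p = 1.1e-09 for the difference, edgeR).

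By transcript the largest drop was in the summed level of the forms with all 3 duplex sites. The 5 TNRC6C transcripts with all 3 sites summed to 2.10, 2.02 and 2.01 TPM (the transcript's share of the library after division by its length) in TNRC6AB-/- siTNRC6C libraries, against 11.6, 11.7 and 11.6 TPM in TNRC6AB-/- siGL2 libraries. The 5 transcripts with none of the sites summed to 4.17, 4.44 and 2.54 TPM with siTNRC6C, against 6.04, 5.69 and 6.15 TPM with siGL2, and were thus also lower without overlap. The 1 form with a single site overlapped between the groups (0.69 ± 0.27 TPM with siTNRC6C and 0.69 ± 0.28 TPM with siGL2; SD, n = 3 each). Of the 5 forms with no site, 3 are annotated as retained introns, and the reads behind them are few: TNRC6C-206, the most abundant of them with siGL2, rested on 6.7 to 33.8 estimated reads with siTNRC6C and 29.8 to 62.2 with siGL2. Counted as TPM, the whole gene therefore stood at 6.45 ± 0.97 with siTNRC6C and 18.3 ± 0.44 with siGL2 (SD, n = 3 each), a smaller drop than in CPM. In wild-type cells the whole gene stood at 3.18 ± 0.48 TPM with siTNRC6C and 6.75 ± 1.3 TPM with siGL2 (SD, n = 3 each). In TPM, unlike in CPM, the level left after silencing was thus higher in TNRC6AB-/- cells than in wild-type cells, without overlap. The forms with all 3 sites did not all move one way: TNRC6C-207 was listed at 0 in all 3 siTNRC6C libraries and at 4.37, 3.92 and 4.11 TPM in siGL2 libraries, while TNRC6C-201 was listed at 0 in all 3 siGL2 libraries and at 0.289, 0.243 and 0.29 TPM in siTNRC6C libraries.

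The other paralogs did not pass the test downward. TNRC6A (chr16:24610209-24827632), a mutated gene whose RNA is still read, measured 78.4, 80.6 and 78.7 CPM in TNRC6AB-/- siTNRC6C libraries, against 64.0, 65.3 and 70.3 CPM in TNRC6AB-/- siGL2 libraries, and rose by 0.25 on the log2 scale (SE 0.050, adjusted p = 0.000496, edgeR). It rose by 0.28 in wild-type cells. TNRC6B (chr22:40044817-40335808) measured 75.3, 79.2 and 81.6 CPM with siTNRC6C, against 84.9, 82.6 and 77.1 CPM with siGL2, and the groups overlapped (edgeR, log2 fold change -0.05, SE 0.053, adjusted p = 0.474).

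**Figure D1:**
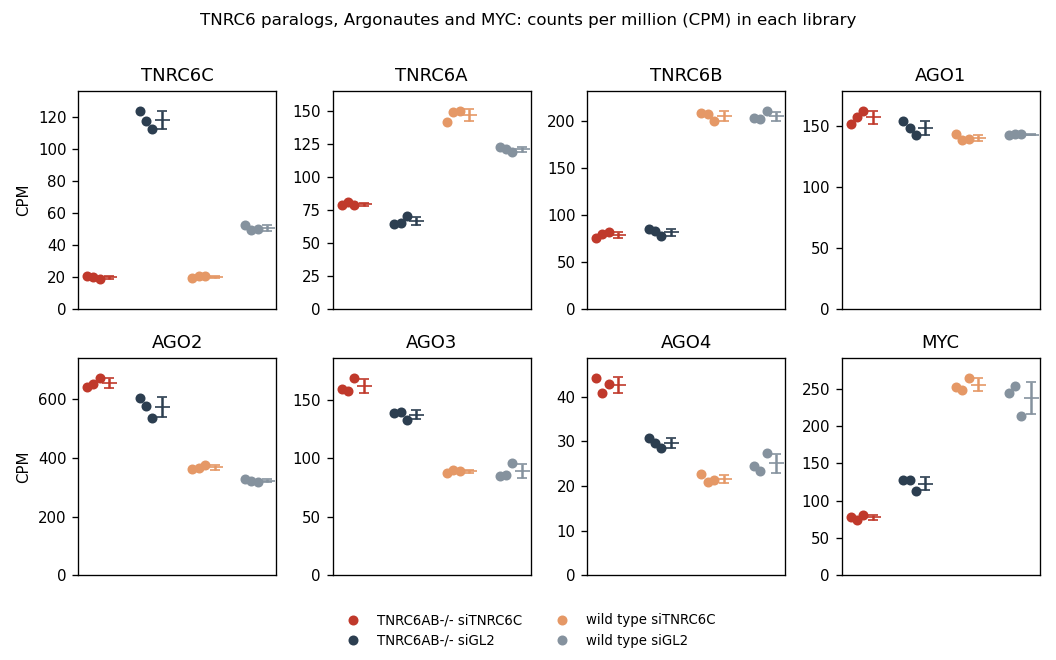
CPM of the TNRC6 paralogs, the 4 Argonaute genes and MYC in each library of the 4 transfected groups; points are libraries and the bars beside them the mean ± SD (n = 3). TNRC6C lies near 20 CPM with siTNRC6C in both backgrounds, and AGO4 and MYC separate the 2 TNRC6AB-/- groups.

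Among the partners of TNRC6, 3 of the 4 Argonaute genes rose. AGO4 changed most, at 44.3, 40.8 and 42.8 CPM in TNRC6AB-/- siTNRC6C libraries, against 30.7, 29.6 and 28.5 CPM in TNRC6AB-/- siGL2 libraries (edgeR, log2 fold change 0.53, SE 0.061, adjusted p = 1.34e-06); in wild-type cells it was -0.21 (adjusted p = 0.0214), and the difference between backgrounds was 0.74 (adjusted p = 3.23e-06). AGO3 rose by 0.24 (adjusted p = 0.00134, edgeR) and AGO2, the catalytic Argonaute, by 0.20 (adjusted p = 0.00937). AGO1 was at 0.08 (adjusted p = 0.211). The calls of TNRC6A, AGO2 and AGO3 were lost in the fit of all 24 libraries, and that of AGO2 also with RLE size factors, with counts scaled from TPM and length and without replicate 3 of TNRC6AB-/- siTNRC6C. Of the 28 tested genes of the RNAi machinery 6 rose and 10 fell, where 12.1% of all genes rose and 21.8% fell. Protein-coding genes at 5 CPM or more in either group are closer to the lists described here, and of these 15.4% rose and 37.8% fell, so the falls of the RNAi genes lay at that background. Without replicate 1 of TNRC6AB-/- siGL2 or replicate 2 of TNRC6AB-/- siTNRC6C, or with counts scaled from TPM and length, 6 RNAi genes fell, and in the fit of all 24 libraries 2 rose and 1 fell. The falls included PNPT1, a mitochondrial RNA exonuclease, at -0.39 (adjusted p = 9.5e-06). Of 37 deadenylation and decapping genes 4 rose and 12 fell, and with all 24 libraries 1 rose and 4 fell. Most of these changes were small, and the ones with the smallest p belong to the ZFP36 family, whose proteins bind AU-rich elements and recruit CCR4-NOT: ZFP36L1 rose to 516, 526 and 546 CPM with siTNRC6C, against 332, 314 and 307 CPM with siGL2 (0.74, SE 0.053, adjusted p = 1.5e-09, edgeR), while ZFP36 (-0.53) and ZFP36L2 (-0.47) fell. DCPS, the scavenger decapping enzyme, fell by 0.50 on the log2 scale.

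Across the transcriptome 1872 of 23135 tested genes (8.09%) changed (adjusted p below 0.05 and more than 0.6 on the log2 scale), 1029 upward (4.45%) and 843 downward (3.64%). By adjusted p alone 2797 (12.1%) rose and 5043 (21.8%) fell, together 33.9%, and by levels that do not overlap between the groups 21.6% of genes were higher and 26.5% lower, so many small differences lie below the fold threshold. DESeq2 on the same 12 libraries called 641 upward and 808 downward, which puts 44.2% of changed genes upward, against 55.0% with edgeR. A fit of all 24 libraries of the series called 311 upward and 496 downward, and without replicate 1 of TNRC6AB-/- siGL2 580 changed upward and 677 downward. Of the 127 named genes that passed the test 70 kept their call in every alternative run, and 45 lost it only in the fit of all 24 libraries, among them FOS and ALDOC.

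The direction differed by class of gene. Of 15072 protein-coding genes 476 (3.16%) changed upward and 631 (4.19%) downward, with a median log2 fold change of -0.07. Of 5547 long noncoding genes 368 (6.63%) changed upward and 155 (2.79%) downward, with a median of 0.24, and 1674 pseudogenes had a median of 0.23. Without replicate 3 of TNRC6AB-/- siGL2 the long noncoding median was 0.34, with 595 upward and 146 downward. DESeq2 called 197 long noncoding genes upward and 117 downward (median 0.22), and counts scaled from TPM and length gave 233 upward and 150 downward (median 0.22). The share of retained-intron reads moved the same way, as given above, and its part in the noncoding rises was not tested.

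Among protein-coding genes at 5 CPM or more, the largest rises included genes with let-7 seed matches. IGDCC3, a surface protein of the DCC family, measured 11.7, 13.1 and 13.7 CPM in TNRC6AB-/- siTNRC6C libraries, against 1.97, 1.80 and 1.37 CPM in TNRC6AB-/- siGL2 libraries (log2 fold change 2.89, SE 0.15, adjusted p = 1.53e-11, edgeR). NR6A1, the orphan nuclear receptor GCNF of germ cells and early embryos, measured 238, 243 and 244 CPM with siTNRC6C, against 56.2, 54.7 and 52.0 CPM with siGL2 (2.15, SE 0.054, adjusted p = 1.13e-16). EDN1, the precursor of the vasoconstrictor endothelin-1, measured 9.17, 9.67 and 10.0 CPM with siTNRC6C, against 2.40, 2.44 and 2.41 CPM with siGL2 (1.99, SE 0.13, adjusted p = 3.56e-10). In each of them the lowest siTNRC6C library was several fold above the highest siGL2 library. CREB5, a transcription factor of the CRE-binding family, rose by 2.03, ANKRD1, a target of the Hippo effector YAP, by 1.70, SLC2A3, the glucose transporter GLUT3, by 1.59, and EMP1, an epithelial membrane protein, by 1.56. SLC2A3 is also the most abundant gene among these rises, at 896, 883 and 953 CPM with siTNRC6C, against 322, 300 and 282 CPM with siGL2. CREB5 lost its call when counts were scaled from TPM and length. DOCK4, a Rac exchange factor, rose by 1.45, the semaphorin SEMA7A by 1.43, the metalloprotease ADAMTS17 by 1.39, MUM1L1 by 1.36, MYBPH by 1.34, the ephrin receptor EPHA4 by 1.32, the forkhead factor FOXD1 by 1.31 and the aquaglyceroporin AQP7 by 1.28 (adjusted p between 2.74e-13 for EPHA4 and 0.000501 for AQP7, edgeR).

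TNRC6C headed the falls, followed by SLC1A3, the glial glutamate transporter EAAT1. SLC1A3 measured 13.0, 13.0 and 11.6 CPM in TNRC6AB-/- siTNRC6C libraries, against 57.7, 54.5 and 53.1 CPM in TNRC6AB-/- siGL2 libraries (log2 fold change -2.14, SE 0.060, adjusted p = 6.7e-16, edgeR). TNFSF18, the ligand of the receptor GITR, measured 3.22, 3.12 and 3.81 CPM with siTNRC6C, against 12.3, 11.1 and 11.2 CPM with siGL2 (-1.76, SE 0.092, adjusted p = 2.05e-11). FOS, the immediate early partner in AP-1, measured 12.2, 12.0 and 12.5 CPM with siTNRC6C, against 38.7, 30.1 and 31.9 CPM with siGL2 (-1.45, SE 0.079, adjusted p = 3.28e-11). Among the other large falls, ID2, an inhibitor of basic helix-loop-helix factors, fell by 1.39 on the log2 scale, DKK1, a secreted Wnt inhibitor, by 1.29, and KITLG, the ligand of KIT, by 1.12. KITLG was abundant, at 482, 492 and 509 CPM with siTNRC6C, against 1155, 1086 and 977 CPM with siGL2. EPN3, an epsin, fell by 1.31, the aldolase ALDOC by 1.22, the quinone reductase NQO1 by 1.20, the epithelial ETS factor ELF3 by 1.12, TLCD1 by 1.11, the protocadherin PCDH7 by 1.09, C1QL4 by 1.09 and the potassium channel KCNH3 by 1.08 (adjusted p at most 2.65e-08, that of TLCD1, edgeR). Of the 15 named rises 3 had a let-7 seed match in the 3′ UTR (20%), and of the 15 named falls 1 (6.67%), where 9.24% of all genes had one.

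The let-7 targets were examined as a list of 38 genes taken from general knowledge of the family. Of its 36 tested members 18 rose, 4 fell and 14 did not pass, with a median log2 fold change of 0.17, against 12.1% that rose, 21.8% that fell and a median of 0.00 over all genes. Beside NR6A1 and EDN1, the leading member was HMGA2, a chromatin architectural protein of embryonic and tumor cells, at 1539, 1536 and 1604 CPM with siTNRC6C, against 668, 677 and 621 CPM with siGL2 (1.25, SE 0.062, adjusted p = 1.04e-11, edgeR). ARID3A, a DNA-binding factor of B cells and early embryos, measured 145, 154 and 160 CPM with siTNRC6C, against 84.1, 82.5 and 75.2 CPM with siGL2 (0.92, SE 0.055, adjusted p = 1.33e-10). HIC2, a zinc finger repressor, measured 48.2, 50.0 and 48.3 CPM with siTNRC6C, against 28.8, 26.9 and 25.9 CPM with siGL2 (0.84, SE 0.053, adjusted p = 2.4e-10). In all 3 genes the groups lay far apart. The levels were lower in wild-type cells, where HMGA2 averaged 360.8 ± 16.3 CPM with siTNRC6C and 299.4 ± 16.8 CPM with siGL2, and NR6A1 16.9 ± 0.49 and 17.3 ± 1.33 CPM in the same groups (SD, n = 3 each). The 4 members that fell include RRM2, a subunit of ribonucleotide reductase, at -0.54, and IGF2BP3, an RNA-binding protein, at -0.42; NRAS was at -0.04 (adjusted p = 0.647). These 3 genes were chosen after their values were seen. Fitted with all 24 libraries, 8 members rose and 1 fell.

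**Figure D2:**
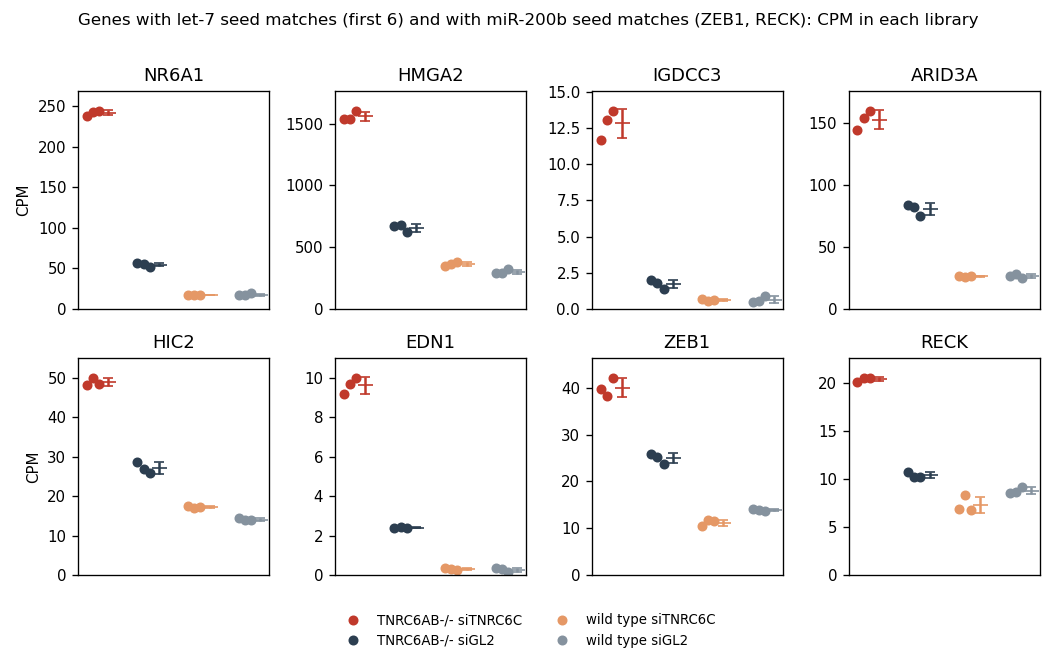
CPM in each library of 6 genes with let-7 seed matches and of ZEB1 and RECK, which have miR-200b seed matches, in the 4 transfected groups; points are libraries and bars the mean ± SD (n = 3). In every panel the TNRC6AB-/- siTNRC6C libraries lie above the other groups, and NR6A1 and IGDCC3 stay low in both wild-type groups.

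Several of the risen genes carry more than 1 match to the let-7 seed, the 7 letters CTACCTC on the transcript strand. NR6A1 has 5 in its 3′ UTR of 5430 bases, HMGA2 4 in 3003 bases, IGDCC3 4 in 1782 bases and HIC2 4 in 4720 bases. A site with 14 bases before the match and 1 after it is shown for each of the first 3 genes, with the seed match in capitals, because their values are given above and each changed by more than 1 on the log2 scale; each ends with an a, which makes it an 8-base site.
NR6A1, chr9:124522310-124522331, minus strand: gttgacaaagatgaCTACCTCa
HMGA2, chr12:65963299-65963320, plus strand: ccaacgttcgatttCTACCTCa
IGDCC3, chr15:65328450-65328471, minus strand: ttggctctcagcacCTACCTCa

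Across 14515 genes with an annotated 3′ UTR of at least 50 bases, the median log2 fold change was higher with each further let-7 match. Genes without a match (13174) had a median of -0.09, with 12.8% that rose and 32.8% that fell. With 1 match (1198 genes) the median was 0.02, with 2 (117 genes) 0.06, and with 3 or more (26 genes) 0.11, where 34.6% rose and 7.7% fell. The 9 that rose among these 26 were IGDCC3, NR6A1, FIGNL2, TRIM71, HMGA2, HIC2, ZNF891, RAB15 and ARIH1, and the 2 that fell were SMC1A and PTAFR, all named after their values were seen. TRIM71, a classical let-7 target first known from the worm as lin-41, was low, at 0.88 CPM on average with siTNRC6C and 0.34 CPM with siGL2. LIN28B, an inhibitor of let-7 maturation, has 4 matches and a log2 fold change of -0.26 (adjusted p = 0.53).

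Length of the 3′ UTR moved with these values. In 5 bins of rising length the median log2 fold change of all genes was -0.16, -0.12, -0.10, -0.04 and 0.03, and genes with more let-7 matches have longer UTRs (a median of 860 bases without a match and 5309 with 3 or more). Within the bins, genes with a match lay above genes without by 0.04, 0.09, 0.05, 0.07 and 0.04, a mean of 0.06. Of 29 families measured the same way, the mean over the bins ran from -0.01 for miR-31 to 0.06 for the miR-17 family, which was first with let-7 second. The miR-25/92 family (0.06) and miR-29 (0.05) were close to these, the other families were lower, and miR-1, a microRNA of muscle, was at 0.03. The seed of siTNRC6C antisense 3 was at 0.06, antisense 1 at 0.00 and antisense 2 at -0.01. No test was run on these medians, and the part of UTR length in them was measured only through the bins.

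**Figure D3:**
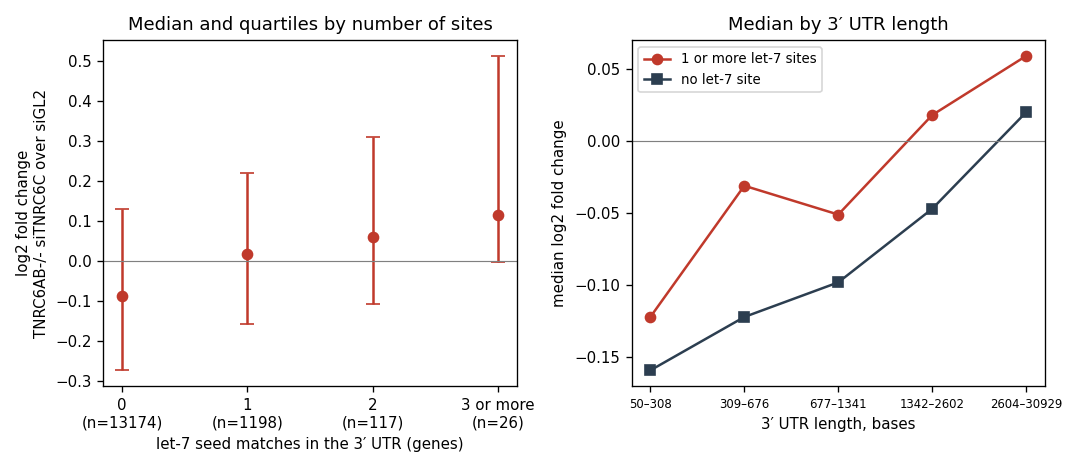
Left, median log2 fold change (TNRC6AB-/- siTNRC6C over TNRC6AB-/- siGL2) of genes by the number of let-7 seed matches in the 3′ UTR, with bars from the lower to the upper quartile. Right, the median of genes with and without a match in 5 bins of UTR length; genes with a match lie higher in every bin, and both medians are lowest in the shortest and highest in the longest UTRs.

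Targets of the miR-17 and miR-200 families rose more often than they fell. Of 31 tested members 13 rose and 3 fell, with a median log2 fold change of 0.13. RECK, a membrane inhibitor of matrix metalloproteases with 2 miR-200b matches, measured 20.2, 20.6 and 20.6 CPM in TNRC6AB-/- siTNRC6C libraries, against 10.8, 10.3 and 10.2 CPM in TNRC6AB-/- siGL2 libraries (0.97, SE 0.072, adjusted p = 2.7e-09, edgeR). ZEB1, a repressor of epithelial genes with 5 matches, measured 39.7, 38.2 and 42.1 CPM with siTNRC6C, against 25.9, 25.3 and 23.7 CPM with siGL2 (0.68, SE 0.058, adjusted p = 1.93e-08). Over all genes with a 3′ UTR, those with a miR-200b match lay above those without by a mean of 0.02 over the length bins, rank 18 of the 29 families. In the list itself 15 of 31 members (48.4%) have a miR-200b match and 18 (58.1%) a miR-17 match. QKI, a splicing factor of mesenchymal cells with neither match in the UTR used here, rose by 0.66, and BCL2L11, the proapoptotic protein BIM, by 0.56. The groups did not overlap for any of these 4. With all 24 libraries fitted together, 4 members rose and 0 fell (edgeR), and without replicate 3 of wild type siGL2 6 fell.

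Epithelial genes fell and mesenchymal genes rose more often than all genes did. Of 46 epithelial genes 8 rose and 23 fell (median log2 fold change -0.20). CDH1, the epithelial cadherin, measured 24.1, 24.2 and 25.7 CPM in TNRC6AB-/- siTNRC6C libraries, against 38.6, 35.7 and 36.2 CPM in TNRC6AB-/- siGL2 libraries (-0.58, SE 0.052, adjusted p = 4.42e-08, edgeR). The surface marker EPCAM fell by 0.54 on the log2 scale, the splicing regulator ESRP1 by 0.62, the claudin CLDN7 by 0.68 and ELF3 by 1.12, while DSC2, a desmosomal cadherin, rose by 0.75. The keratins were nearly level, with KRT8 at -0.20 (adjusted p = 0.0404, a call lost without any 1 of the siTNRC6C libraries), KRT18 at -0.13 (adjusted p = 0.157) and KRT19 at 0.06 (adjusted p = 0.521). Mesenchymal genes moved the other way, with 19 of 35 higher, 3 lower and a median of 0.34. LOXL2, a collagen crosslinking enzyme, rose by 0.73 (SE 0.056, adjusted p = 4.32e-09, edgeR) and FSTL1, a secreted glycoprotein, by 0.68. COL3A1, which is also on the list of markers foreign to the line, stood at 11.9, 10.8 and 11.7 CPM with siTNRC6C and 6.88, 6.44 and 6.58 CPM with siGL2; DCN and PDGFRB were under 1 CPM in both groups. In the fit of all 24 libraries 1 epithelial gene rose and 4 fell, and 7 mesenchymal genes rose and 3 fell, and in that fit the call of CDH1, EPCAM, ESRP1 and CLDN7 was lost.

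Targets of the YAP and TGF-beta pathways made up the list with the largest share of rises. Of 35 genes 23 rose and 6 fell (median 0.30), and the list shares 3 genes with the mesenchymal list. CTGF, a matricellular protein and common YAP readout, measured 45.9, 47.1 and 49.5 CPM in TNRC6AB-/- siTNRC6C libraries, against 25.1, 25.5 and 22.3 CPM in TNRC6AB-/- siGL2 libraries (0.97, SE 0.061, adjusted p = 2.69e-10, edgeR). SKIL, a repressor of SMAD proteins, rose by 0.87. ANKRD1 measured 56.0, 55.1 and 56.4 CPM with siTNRC6C, against 18.2, 18.1 and 15 CPM with siGL2. The 6 falls were F3, TGFB1, TGFB2, ID1, ID2 and ID3, of which all but ID2 are named after their values were seen; the ID genes are common targets of BMP signalling. Over all 24 libraries 7 members rose and 2 fell. Wnt targets (7 rose and 7 fell of 20) and p53 targets (13 rose and 12 fell of 40) had rises and falls in similar number. With counts scaled from TPM and length 9 p53 targets rose and 6 fell. Of the Wnt targets 35.0% rose and 35.0% fell, and of the p53 targets 32.5% rose and 30.0% fell. Among protein-coding genes at 5 CPM or more in either group 15.4% rose and 37.8% fell. Rises in both lists were thus more common than in that background, and falls were not. NKD1, a feedback inhibitor of Wnt signalling, rose by 0.75, and the intestinal stem cell factor SOX9 by 0.55, whereas DKK1 and MYC fell. Of the p53 list, PMAIP1 (NOXA) rose by 0.53, and KITLG, GDF15 (-0.79) and FDXR (-0.47) fell.

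Genes of protein synthesis fell almost without exception. All 79 tested cytosolic ribosomal protein genes fell, with a median log2 fold change of -0.43, and the summed level of the list was 27980 to 29630 CPM in TNRC6AB-/- siTNRC6C libraries and 35150 to 41410 CPM in TNRC6AB-/- siGL2 libraries. RPL12 measured 370, 368 and 390 CPM with siTNRC6C, against 672, 643 and 563 CPM with siGL2 (-0.74, SE 0.070, adjusted p = 8.51e-08, edgeR). RPS2 fell by 0.68 on the log2 scale, RPS3 by 0.60 and RPSA by 0.55. Ribosomal protein genes have many processed pseudogenes, whose reads are hard to tell from theirs. Of 51 genes of ribosome biogenesis and MYC targets 49 fell and none rose (edgeR, adjusted p below 0.05; median -0.37), among them POLR1B, a subunit of RNA polymerase I (-0.52), NIP7 (-0.55) and the importin IPO4 (-0.52). MYC itself measured 78.4, 74.1 and 80.6 CPM with siTNRC6C, against 128, 128 and 113 CPM with siGL2 (-0.66, SE 0.067, adjusted p = 2.15e-07). In the fit of all 24 libraries 11 ribosomal protein genes and 19 biogenesis genes fell, with medians of -0.46 and -0.40.

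Cell cycle genes fell as well. Of 44 S phase genes 34 fell and 1 rose (median -0.27), and of 48 genes of G2 and M phase 40 fell and none rose (edgeR, adjusted p below 0.05; median -0.27). MCM6, a subunit of the replicative helicase, measured 83.6, 85.8 and 91.5 CPM in TNRC6AB-/- siTNRC6C libraries, against 147, 139 and 123 CPM in TNRC6AB-/- siGL2 libraries (-0.65, SE 0.071, adjusted p = 6.23e-07, edgeR). SLBP, which binds histone mRNA, fell by 0.59 on the log2 scale and MCM4 by 0.57. CDC20, an activator of the anaphase promoting complex, measured 85.8, 87.2 and 88.6 CPM with siTNRC6C, against 140, 128 and 119 CPM with siGL2 (-0.56, SE 0.073, adjusted p = 6.09e-06); HMMR fell by 0.57, NEK2 by 0.54 and PTTG1 by 0.48. In the fit of all 24 libraries 1 S phase gene and 0 genes of G2 and M phase fell (edgeR), with a median of -0.30 in each list. In bulk RNA, fewer cells in a phase and less RNA per cell cannot be told apart.

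Metabolic and stress genes were mostly lower. Of 45 genes of the integrated stress and unfolded protein responses 29 fell and 3 rose (median -0.29), led by DDIT4, an inhibitor of mTORC1 (-0.83), the transcription factor CEBPB (-0.71), the asparagine synthetase ASNS (-0.69) and the folate enzyme MTHFD2 (-0.59). Of 32 genes of cholesterol and lipid synthesis 21 fell and 2 rose (median -0.21), with FADS1 at -0.75, FASN at -0.47 and STARD4 at -0.40; 13 fell without replicate 1 of TNRC6AB-/- siGL2 or without replicate 2 of TNRC6AB-/- siTNRC6C. Of 35 hypoxia and glycolysis genes 18 fell and 7 rose (median -0.22). Of its members, SLC2A3 rose, whereas HK2, the second hexokinase, measured 18.2, 17.6 and 18.9 CPM with siTNRC6C, against 36.9, 35.0 and 36.9 CPM with siGL2 (-0.99, SE 0.059, adjusted p = 1.33e-10, edgeR), and PGK1 fell by 0.72. Only 4 of these genes rose without replicate 2 of TNRC6AB-/- siGL2, without replicate 3 of TNRC6AB-/- siTNRC6C or with RLE size factors. In the fit of all 24 libraries 3 stress response genes and 2 lipid synthesis genes fell, and of the hypoxia and glycolysis genes 1 rose and 0 fell (edgeR).

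Immune and immediate early genes were divided. Of 62 interferon-stimulated genes 23 fell (37.1%) and 7 rose (11.3%), with a median of -0.10. Among protein-coding genes at 5 CPM or more in either group 37.8% fell and 15.4% rose (median -0.10). The falls of the list thus lay at that background and its rises slightly below it. In the list 4 genes rose without replicate 1 of TNRC6AB-/- siGL2 or replicate 3 of TNRC6AB-/- siTNRC6C, and 11 without replicate 3 of wild type siGL2. HERC6 was at -0.87, SP110 at -0.58, HLA-E at -0.52 and EIF2AK2, the double-stranded RNA sensor PKR, at -0.47. Of 25 NF-kB and inflammatory genes 7 rose and 5 fell: BIRC3 rose by 0.76, TNFAIP2 by 0.30 and PLAU by 0.29, and REL fell by 0.32. Of 35 AP-1 and immediate early genes 11 rose and 14 fell. FOS and JUNB (-0.99) fell, while FOSL2 rose by 0.61 and DUSP4, a phosphatase of ERK, by 0.78. Lysosomal and autophagy genes rose more often than they fell (11 and 3 of 35), with NPC2 at 0.69, FNIP2 at 0.63, ULK1 at 0.59 and the cathepsin CTSB at 0.56, although their median was only 0.04. Without replicate 3 of TNRC6AB-/- siGL2 rises and falls were closer in number, with 10 that rose and 8 that fell. Over all 23693 genes tested in that fit 3085 rose and 5813 fell. Without replicate 3 of wild type siGL2 6 lysosomal and autophagy genes fell. Of 28 genes of the BCL2 family, the caspases and their inhibitors 7 rose and 5 fell, with BCL2L2 at -0.43. Of 28 genes of nonsense-mediated decay, SR proteins and host genes of small nucleolar RNAs 15 fell and 1 rose, with the host genes SNHG12 (-0.53), GAS5 (-0.53) and SNHG1 (-0.43) and the exon junction protein EIF4A3 (-0.59) leading. Intestinal differentiation genes were low, with 23 of 39 below the filter; 5 fell, of which MUC1 was at -0.61, and KLF5 rose by 0.35. In the fit of all 24 libraries 0 interferon-stimulated genes rose and 2 fell, 4 AP-1 and immediate early genes rose and 1 fell, 3 lysosomal and autophagy genes rose and 0 fell, and 0 genes of the list with nonsense-mediated decay rose and 4 fell (edgeR).

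**Figure D4:**
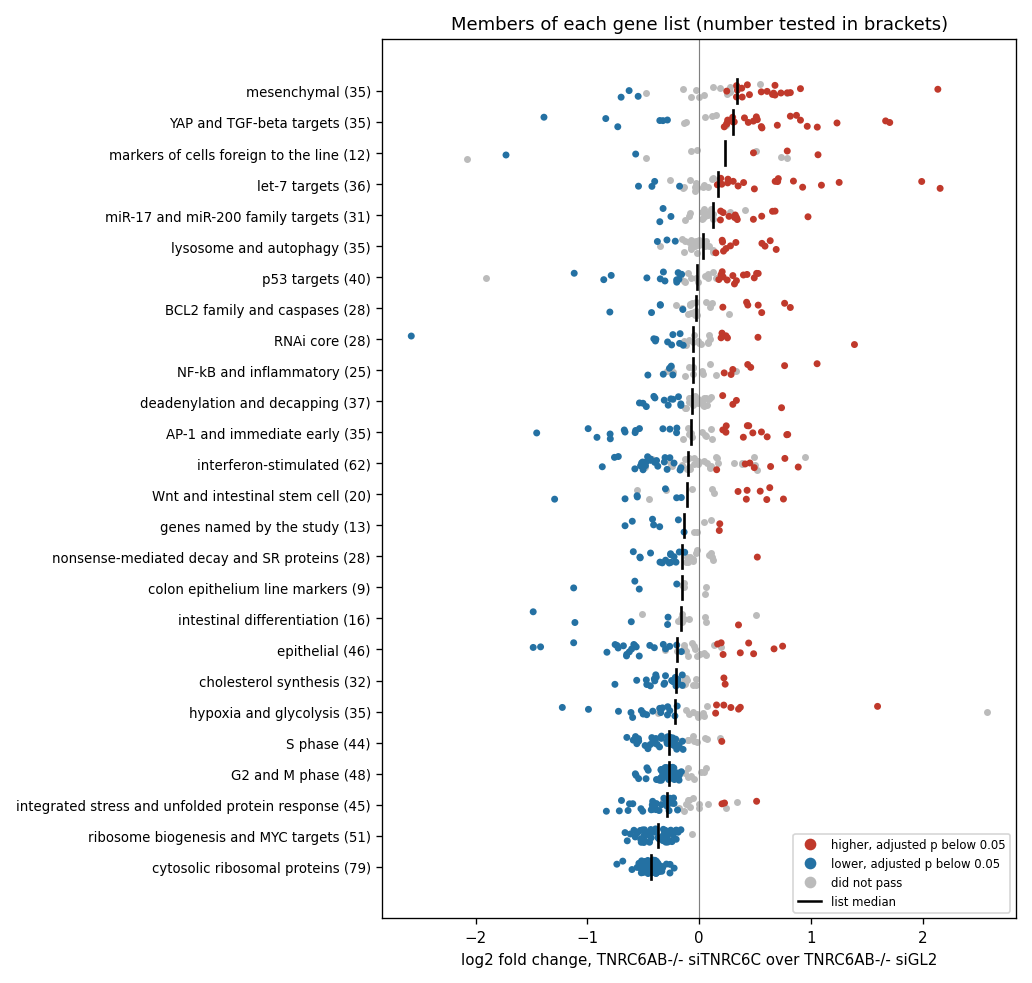
Log2 fold change (TNRC6AB-/- siTNRC6C over TNRC6AB-/- siGL2) of each tested member of the gene lists; red and blue points passed the test upward and downward, grey points did not, and black bars are list medians. Mesenchymal and YAP and TGF-beta targets have the highest medians (0.34 and 0.30), and ribosomal protein and ribosome biogenesis genes the lowest (-0.43 and -0.37).

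Of 13 genes that the study names for its splicing, reference or paralog measurements, 2 rose and 7 fell. HPRT1 and GAPDH, often used as reference genes, were both lower: HPRT1 measured 31.9, 31.9 and 33.9 CPM in TNRC6AB-/- siTNRC6C libraries, against 53.6, 50.7 and 43.3 CPM in TNRC6AB-/- siGL2 libraries (-0.60, SE 0.071, adjusted p = 1.67e-06, edgeR), and GAPDH 1076, 1073 and 1129 CPM with siTNRC6C, against 1505, 1428 and 1255 CPM with siGL2 (-0.35, SE 0.078, adjusted p = 0.0013). APIP fell by 0.41 and DEPDC1 by 0.42, PHLDB1 and RUBCN rose by 0.18 each, FAM83F was at -0.19 and TBC1D5 at -0.14 (adjusted p = 0.0118 and 0.0442). FKBP14, KIF21A, PPIP5K2 and EPB41L2 did not pass, with log2 fold changes between -0.05 and 0.11. HPRT1 kept its call in every alternative run, and GAPDH lost it in the fit of all 24 libraries. TBC1D5 kept its call in only 6 of 22 alternatives, and DESeq2, RLE size factors and the replicate block were among those without it. PHLDB1 kept its call in 17, RUBCN in 18 and FAM83F in 19 of the 22.

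Fewer genes changed when TNRC6C was silenced in wild-type cells. There 679 genes (2.93%) changed, 190 upward (0.821%) and 489 downward (2.11%), with no library shared between the comparisons. Of the 1029 genes that changed upward in TNRC6AB-/- cells 29 (2.82%) also changed upward in wild-type cells, which is 15.3% of the 190, where 4.45% of all genes changed upward in TNRC6AB-/- cells. Of the 843 genes that changed downward 110 (13%) also changed downward in wild-type cells, which is 22.5% of the 489, where 3.64% of all genes changed downward in TNRC6AB-/- cells. In the opposite direction, 21 of the 190 (11.1%) changed downward in TNRC6AB-/- cells, also above the 3.64%. Genes up in wild-type cells were thus over-represented both ways. Of the 489, 21 (4.29%) changed upward in TNRC6AB-/- cells, near the 4.45% of all genes. The genes up in TNRC6AB-/- cells had a median of 0.02 in wild-type cells and the genes down a median of -0.17. Where the effect itself was compared, it differed between backgrounds in 6677 genes (28.9%; 8.07% with a higher and 20.8% with a lower effect in TNRC6AB-/- cells), including 918 of the 1872 genes changed in TNRC6AB-/- cells. EPHA4 rose in both, by 1.32 in TNRC6AB-/- and 0.95 in wild-type cells. The difference also exceeded 0.6 on the log2 scale in 8.86% of genes (3.76% higher and 5.09% lower in TNRC6AB-/- cells). The fit of all 24 libraries called 722 genes different between backgrounds.

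The genes with the strongest evidence of a different effect moved in opposite directions or in TNRC6AB-/- cells alone. SLC1A3 fell by 2.14 on the log2 scale in TNRC6AB-/- cells and rose by 1.45 in wild-type cells, where it averaged 44.9 ± 1.09 CPM with siTNRC6C and 16.4 ± 0.61 CPM with siGL2 (SD, n = 3 each; difference -3.59, SE 0.084, adjusted p = 5.53e-17, edgeR). TNFSF18 fell by 1.76 and rose by 1.28 in the same backgrounds (difference -3.04, adjusted p = 2.34e-12). SLC2A3 rose by 1.59 in TNRC6AB-/- cells and was at -0.74 in wild-type cells (adjusted p = 2.92e-07, edgeR; difference 2.33, adjusted p = 1.05e-12). NR6A1 rose by 2.15 in TNRC6AB-/- cells and was at -0.03 in wild-type cells (adjusted p = 0.803; difference 2.19, adjusted p = 3.13e-13). Among the lists, ribosome biogenesis genes had a median of -0.37 in TNRC6AB-/- cells and 0.36 in wild-type cells, where 45 of 51 rose (13.8% of all genes rose there and 7.36% fell, together 21.2%), and the effect was lower in TNRC6AB-/- cells for all 51. S phase genes had medians of -0.27 and 0.30, with a lower effect for 42 of 44. The ribosomal protein genes had medians of -0.43 and -0.03, with a lower effect for 74 of 79. The targets of let-7 had medians of 0.17 and 0.09, and their effect was higher in TNRC6AB-/- cells for 11 genes and lower for 6 of 36.

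**Figure D5:**
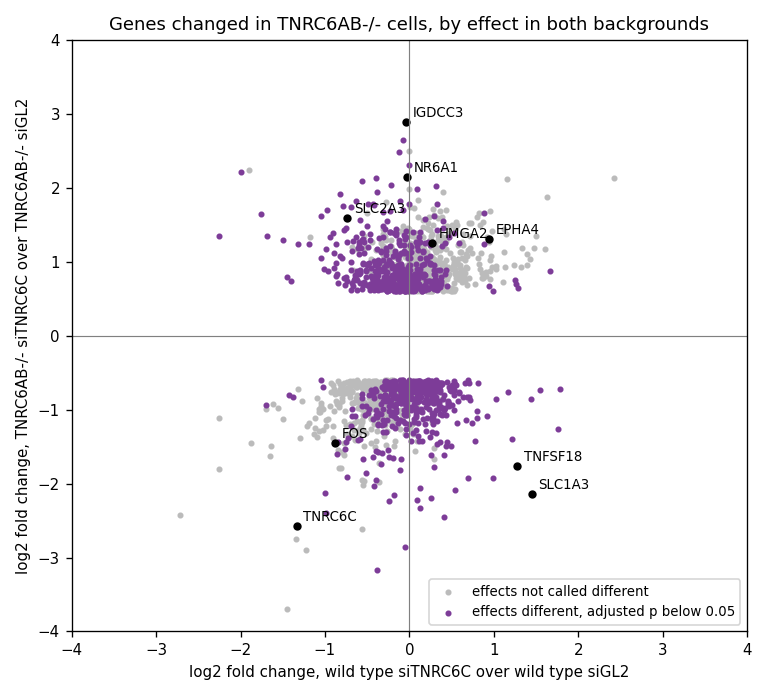
Log2 fold change with siTNRC6C of 1867 genes that changed in TNRC6AB-/- cells, in TNRC6AB-/- cells (vertical) and in wild-type cells (horizontal); purple points are genes whose effects differ, and 5 changed genes lie beyond the axes. SLC1A3 and TNFSF18 lie lower right, SLC2A3 upper left, and NR6A1 and IGDCC3 near 0 on the horizontal axis.

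The double knockout by itself gives a further reference from libraries that were not transfected. In 3 TNRC6AB-/- against 3 wild-type libraries 3095 of 21388 genes (14.5%) changed, 1717 upward (8.03%) and 1378 downward (6.44%), and by adjusted p alone 16.7% differed (9.3% higher and 7.44% lower). Of these, 1703 and 1367 were tested in the silencing comparison. Genes that were down in the double knockout moved further the same way when TNRC6C was silenced, with a median log2 fold change of -0.25, where 47.9% fell and 7.97% rose. Genes that were up in the double knockout had a median of 0.02, where 28.6% rose and 20.8% fell. Genes that did not pass the adjusted p in the double knockout had a median of 0.00, where 11.4% rose and 21.6% fell. Falls were thus more common than this among the genes already down, and rises among the genes already up. Rises were less common among the genes already down, while falls among the genes already up (20.8%) lay near the 21.6%. The sets were not matched for expression, and of protein-coding genes at 5 CPM or more in either group 15.4% rose and 37.8% fell.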

How the data were processed

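Strand-specific RNA-seq was made from HCT116 cells; the labels name Trizol for extraction and the methods a column kit. The authors quantified transcripts with Salmon 0.11.0, and the submitters' processing notes also name hg38, STAR 2.5.3a and DESeq2. Per transcript the deposited files hold an estimated count of reads, which need not be whole, and a TPM from the same Salmon run. Of 199612 transcripts 199368 were matched to GENCODE 29, and the 244 others held at most 0.0544% of a library's reads. Estimated counts were summed to genes, rounded, filtered with filterByExpr, scaled by TMM and fitted by quasi-likelihood in edgeR 4.0.16 (R 4.3.3) with 1 mean for each of the 4 transfected groups (12 libraries, 8 residual degrees of freedom). Benjamini-Hochberg adjustment ran over the 23135 genes tested. A gene changed where its adjusted p was under 0.05 and its log2 fold change exceeded 0.6 in size, while "rose" and "fell" of named genes and list members rest on the adjusted p. The SE is the size of the log2 fold change over the square root of F. The untransfected libraries were fitted apart. The fit was tested on simulated data.

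Genes were named by these rules: the TNRC6 and AGO genes and those the study names; the 15 largest rises and 15 largest falls among changed protein-coding genes with a mean of at least 5 CPM and no overlap; in each list, no more than 4 genes, those with the lowest p; 5 near matches to a duplex strand; and the 5 lowest p for a difference between backgrounds. Some genes that these rules name are not reported here. The comparison and the lists were chosen with earlier results of these data known. Seed matches were counted in the 3′ UTR of 1 coding transcript per gene, for 29 microRNA families found in RefSeq (GRCh38.p14). Alternatives were DESeq2 1.42.0, limma 3.58.1 (voom), RLE size factors, no filter or a mean of at least 1 CPM, the 6 compared libraries alone, all 24 libraries, counts scaled from TPM and length, a replicate block, and each transfected library left out.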

Additional observations from a re-analysis of the deposited data

Results flagged for a closer look

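Of the 132 named genes reported here, 112 had an siTNRC6C effect that differed between TNRC6AB-/- and wild-type cells (adjusted p under 0.05 for the difference, edgeR), and for 68 the difference also exceeded 0.6 on the log2 scale. The value after each gene is its log2 fold change in TNRC6AB-/- cells minus that in wild-type cells. Since 4 of the genes were named for this difference and most others for their change in TNRC6AB-/- cells, the share is a description.

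In 31 of the 68 genes the effect passed the test in opposite directions. Those that fell in TNRC6AB-/- cells and rose in wild-type cells were SLC1A3 (-3.59), TNFSF18 (-3.04), EPN3 (-1.62), DKK1 (-1.50), TLCD1 (-1.40), HERC6 (-1.12), NIP7 (-0.97), EPCAM (-0.95), CDH1 (-0.93), MCM6 (-0.90), MCM4 (-0.86), IPO4 (-0.85), SLBP (-0.84), AHSA1 (-0.84), POLR1B (-0.83), EIF4A3 (-0.83), CA2 (-0.82), HPRT1 (-0.80), CDC20 (-0.77), EIF2AK2 (-0.72), SNHG12 (-0.72), PNPT1 (-0.70) and REL (-0.61). They include replication, ribosome biogenesis and epithelial genes. Those that rose in TNRC6AB-/- cells and fell in wild-type cells were SLC2A3 (2.33), RECK (1.24), LOXL2 (1.06), ZEB1 (0.99), CTSB (0.95), DUSP4 (0.93), AGO4 (0.74) and SOX9 (0.73).

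In the other genes the effects were not both called in opposite directions. The effect was lower in TNRC6AB-/- cells for MUC13 (-1.92), TNRC6C (-1.24), KITLG (-0.96), PCDH7 (-0.91), HK2 (-0.83), NQO1 (-0.83), MYC (-0.77), ESRP1 (-0.73), HMMR (-0.71), ELF3 (-0.69), KCNH3 (-0.68), ID2 (-0.67), SP110 (-0.66), ZFP36L2 (-0.64) and CLDN7 (-0.60). It was higher in TNRC6AB-/- cells for IGDCC3 (2.93), NR6A1 (2.19), AQP7 (1.95), EDN1 (1.90), ANKRD1 (1.77), CREB5 (1.72), DOCK4 (1.61), MUM1L1 (1.42), FOXD1 (1.35), LYZ (1.20), EMP1 (1.16), SEMA7A (1.09), HMGA2 (0.98), ARID3A (0.95), SKIL (0.91), ADAMTS17 (0.86), BIRC3 (0.81), NKD1 (0.81), CTGF (0.71), ULK1 (0.71), QKI (0.69) and FOSL2 (0.65).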

How the results depend on the processing

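edgeR on the 12 transfected libraries found 1872 changed genes, 1029 higher and 843 lower in TNRC6AB-/- siTNRC6C than in TNRC6AB-/- siGL2. The total was 1176 (652 higher, 524 lower) among genes with a mean of at least 1 CPM and 807 (311 higher, 496 lower) with all 24 libraries, and DESeq2 called 641 higher. With each library left out in turn the total was 1257 to 2412, the higher count 580 to 1423, the lower count 677 to 989 and the TNRC6C log2 fold change -2.61 to -2.54. Without replicate 3 of both siGL2 groups, an alternative chosen after seeing the data, 3178 genes changed (2184 higher, 994 lower). The 6677 genes whose effect differed between backgrounds were 722 with all 24 libraries, 4292 with counts scaled from TPM and length, 4769 to 7640 with a library left out, and 7838 without both replicates 3. The direction turned for FKBP14 (0.03 with a mean of at least 1 CPM and 0.015 without both replicates 3), TBC1D5 (0.12) and ACIN1 (0.067), the last pair with counts scaled from TPM and length; the causes were not tested. Of 2968 values of named genes 2853 kept direction and call, 102 lost the call, 9 gained it and 4 turned. With all 24 libraries fewer list members were called, while the list medians stayed close. The median was 0.31 for mesenchymal genes, -0.23 for epithelial genes and -0.32 for genes of the stress responses.

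Same-numbered libraries did not deviate together (r = -0.09, -0.18 and -0.40 in TNRC6AB-/- cells), so the numbers were not taken as pairs. A replicate block gave 1805 changed genes (1003 higher, 802 lower) and 5961 genes with a different effect. Depth limits the precision of fold changes of genes under 1 CPM.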
